A study of Mus musculus with 60 samples.

Results

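The solute carriers (SLC) are the largest family of membrane transport proteins, which move nutrients, ions and metabolites into and out of cells and organelles. The genes described here are the solute carrier transporters with appreciable mRNA in microglia, the resident macrophages of the brain, sorted from mouse cortex after neonatal stroke. They were chosen by name and level: symbols made of Slc, a family number, the letter a and a member number, or beginning with Slco, whose mean reached 10 TPM (a unit of transcript abundance scaled for transcript length and library depth) in at least 1 sample group. Slc40a1, Slc11a1, Slc11a2, Slc16a3 and Slc2a5 were left out by name. Of 369 symbols of this form among the 55413 in each table, 141 met the rule, 223 stayed below 10 TPM in every group and 5 were the genes left out. The levels chose the genes and are given as a description, without a test.

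SLC proteins are grouped by sequence into numbered families, and members of a family often share a kind of substrate. Some work at the cell surface, others on lysosomes, endosomes, the Golgi or mitochondria, where the SLC25 family exchanges metabolites, nucleotides and phosphate across the inner membrane. In microglia, carriers supply amino acids, sugars and metals and return the products of degraded material from lysosomes to the cytosol.

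The 52 bulk RNA libraries came from mice of the genotype Spp1-CreER:R26-Tdtomato, all with stroke, in which a Cre recombinase driven by Spp1 switches on a red fluorescent protein, so that Tdt+ marks cells with a history of Spp1 expression. Contralateral microglia came from the uninjured side of the same kind of mouse, so no group is free of stroke. Tdt- and Tdt+ cells came from the stroke side. Contralateral samples were matched to columns of unlabelled (Tdt-) cells, a match the labels do not state. If it holds, Tdt+ minus contralateral differs in both side and label, which cannot be told apart in that contrast. Each library held 2000 sorted cells. Contralateral, Tdt- and Tdt+ cells were compared at day 7 after injury (postnatal day 13, 3 libraries per group), at day 28 (postnatal day 34, 4 per group) and at postnatal day 34 in animals given lipopolysaccharide (LPS, a bacterial trigger of innate immune signalling, 4 per group). A separate time course held only Tdt+ cells at day 3 (postnatal day 9, n = 5), day 7 (n = 5), day 14 (postnatal day 20, n = 5) and day 28 (n = 4). The labels used here give neither the dose and timing of LPS nor when recombination was induced, and do not say whether libraries came from separate animals, so p-values measure the spread between these samples, which may be technical.

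The depth of the libraries is unknown because the deposited values are TPM. Libraries had 11544 to 14093 genes at 1 TPM or more. The 10 microglia markers summed to between 17216 and 61100 TPM in every library, with P2ry12 among them at a mean of 806 TPM in LPS Tdt+ cells and 10778 TPM in day 28 Tdt- cells. Markers of neurons summed to at most 16.0 TPM and those of astrocytes to at most 25 TPM. Oligodendrocyte markers summed to 50.5 to 161.9 TPM, with Cnp at group means of 45.4 to 105.8 TPM and Olig2 at 0.113 TPM or less. The list for T, NK and B cells summed to 29.4 to 129.3 TPM, with Cd79b at group means of 44.5 to 110.5 TPM. Border-associated macrophage markers summed to 4.09 to 379.5 TPM, the highest in day 7 Tdt+ replicate 1. Neutrophil markers reached 178.9 TPM in 1 library, day 7 Tdt- replicate 3, and 18 TPM or less in the others. Erythroid markers reached 447.6 TPM in time course day 14 replicate 2. In bulk samples, fewer cells of a type and less RNA per cell cannot be told apart. The 4 tables differ even under the same label. Day 7 Tdt+ libraries of the contralateral comparison were set beside those of the time course. Of the 118 members at 10 TPM in either, 21 differed by more than 3-fold, 10 higher and 11 lower in the time course. At day 28, 17 of 124 did. Slc8a1, the sodium/calcium exchanger NCX1, was at 5.10 TPM in day 7 Tdt+ cells of the contralateral comparison and 219.5 TPM in those of the time course. Spp1, whose past expression the label marks, averaged 766.4 and 0.824 TPM in the same order, and Mrc1 127.1 and 24.3 TPM. At day 28 Spp1 averaged 10.9 and 0.993 TPM. Whether scaling or the cells themselves made these differences was not tested. Levels set side by side across tables carry this limit, and tests were run within a table.

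Of the 141 members, 137 are carriers and 4 share only the symbol form: Slc7a6os, Slc4a1ap, Slc9a3r1 and the pseudogene Slc2a4rg-ps. In all 13 groups 80 members were at 10 TPM or more, 39 passed 100 TPM in some group, and 9 reached 10 TPM in 1 group only (Slc10a6, Slc20a2, Slc22a5, Slc25a13, Slc25a40, Slc26a11, Slc36a2, Slc41a1 and Slc43a3). Just inside the threshold, Slc20a2 was at 10.1 TPM, Slc25a13 at 10.2 TPM and Slc41a1 at 10.4 TPM in their highest groups. Just outside it were Slc25a27 at 9.60 TPM, Slc25a42 at 9.53 TPM and Slc25a29 at 9.45 TPM.

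Amino acid and peptide carriers formed a class of 23 members, 16 of them at 10 TPM in every group. Slc3a2, the heavy chain (4F2hc) that carries several amino acid exchangers to the cell surface, averaged 915.9 ± 92.1 TPM (SD, n = 4) in LPS contralateral cells and was lowest at day 3 of the time course (318 ± 31.0 TPM, SD, n = 5). Slc7a8, the LAT2 light chain that pairs with it, ranged from 60 ± 5.89 TPM (SD, n = 3) in day 7 Tdt+ cells to 402.1 ± 32.8 TPM (SD, n = 4) at day 28 of the time course. Slc6a6, the taurine transporter, ranged from 42.9 ± 12.8 TPM (SD, n = 4) in day 28 contralateral cells to 298.6 ± 11.9 TPM (SD, n = 5) at day 3. The heavy chain was thus the highest of the class, and no pair of the 3 shared its highest group.

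Among 10 carriers of sugars and polyols, 4 were at 10 TPM in every group. Slc50a1 (SWEET1) reached 189.1 ± 17.9 TPM (SD, n = 4) and Slc2a8 (GLUT8, an intracellular hexose carrier) 105.1 ± 10.3 TPM (SD, n = 4), both in day 28 Tdt- cells. Slc37a2, a phosphate-linked glucose-6-phosphate antiporter known from macrophages, reached 116.5 ± 11.7 TPM (SD, n = 4) at day 28 of the time course. The carboxylate class had 4 members. Slc13a3, the sodium-dependent dicarboxylate transporter that takes up succinate and related acids, spanned 8.01 ± 4.39 TPM (SD, n = 3) in day 7 contralateral cells to 524.7 ± 217 TPM (SD, n = 4) in LPS Tdt+ cells. Slc16a6 reached 286.1 ± 69.6 TPM (SD, n = 4) in day 28 contralateral cells, and Slc16a7, the pyruvate carrier MCT2, 45.3 ± 15.1 TPM (SD, n = 4) at day 28 of the time course.

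Nucleoside and ATP carriers numbered 4. The lysosomal equilibrative transporter Slc29a3 peaked at 380.9 ± 48.5 TPM (SD, n = 4) at day 28 of the time course. The surface transporter Slc29a1 (ENT1) was at its lowest in that same group (149 ± 10.1 TPM, SD, n = 4) and at its highest in day 7 contralateral cells (334.9 ± 12.1 TPM, SD, n = 3). Slc17a9, which loads ATP into vesicles, reached 25.3 ± 3.61 TPM. The 4 Golgi and related nucleotide sugar carriers were lower, with Slc35a1 (CMP-sialic acid) at 52.8 ± 17.5 TPM, Slc35a5 at 49.7 ± 8.86 TPM and Slc35a2 (UDP-galactose) at 32.3 ± 11.1 TPM in their highest groups. Among 5 carriers of lipids, choline and acyl groups, Slc44a2 (choline transporter-like protein 2) reached 274.1 ± 39.1 TPM, the fatty acid transport protein Slc27a1 49.0 ± 5.21 TPM and the acetyl-CoA carrier Slc33a1 35.8 ± 4.19 TPM.

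Organic ion, vitamin and urea carriers numbered 13. Slco2b1, an organic anion transporter (OATP2B1), was the highest of them, from 275 ± 10.2 TPM (SD, n = 5) at day 3 to 762.1 ± 128 TPM (SD, n = 5) at day 14 of the time course. Slc46a1, the proton-coupled folate transporter, reached 187.5 ± 9.92 TPM (SD, n = 4) and the lysosomal Slc46a3 174.1 ± 13.4 TPM (SD, n = 4), both at day 28. Of 21 metal and haem carriers, 15 were at 10 TPM in every group. The zinc importer Slc39a1 spanned 65.8 ± 0.676 TPM (SD, n = 4) at day 28 of the time course to 548.1 ± 54.3 TPM (SD, n = 3) in day 7 Tdt+ cells. The copper carrier Slc31a2 (CTR2) peaked at 394.9 ± 101 TPM and Slc39a7, which releases zinc from the endoplasmic reticulum, at 249.4 ± 4.74 TPM (SD, n = 4), both in LPS Tdt+ cells.

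Of 19 carriers of inorganic ions and protons, 8 were at 10 TPM in every group. Slc8a1 had the widest span, 3.77 ± 1.19 TPM (SD, n = 3) in day 7 contralateral cells to 516 ± 75.7 TPM (SD, n = 4) at day 28 of the time course, and these groups come from different tables. Slc12a9 reached 341.3 ± 52.7 TPM in LPS contralateral cells and the endosomal sodium/proton exchanger Slc9a9 199.8 ± 25.8 TPM at day 28 of the time course. The mitochondrial carrier family was the largest class, with 29 members and 16 at 10 TPM in every group. Its leading genes were Slc25a5, an ADP/ATP carrier (876.3 ± 71.4 TPM, SD, n = 3), and Slc25a3, the phosphate carrier (783.8 ± 49.4 TPM, SD, n = 3), both highest in day 7 Tdt- cells and lowest at day 28 of the time course (342 ± 15.1 and 411 ± 47.6 TPM, SD, n = 4). Slc25a45 followed at 264.5 ± 23.3 TPM (SD, n = 4) in day 28 contralateral cells. Slc25a5 has near-identical copies in the genome among which its reads may be split. Of 5 members without an assigned substrate, Slc35a4 reached 141.8 ± 5.12 TPM, Slc10a3 79.0 ± 19.9 TPM and Slc10a7 35.3 ± 12.6 TPM.

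**Figure D1:**
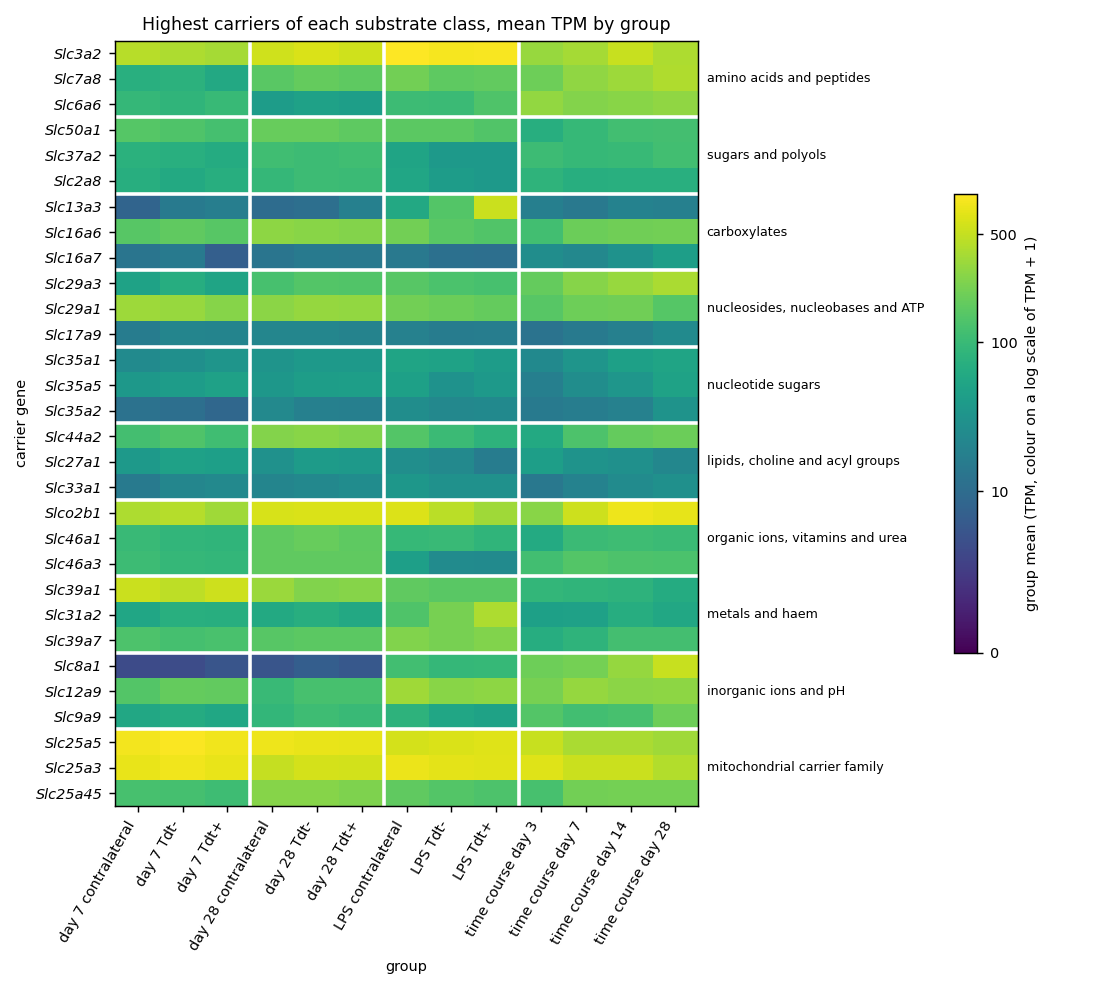
Mean level in each of the 13 groups (columns) of the 3 highest carriers of each of 10 substrate classes, as colour on a log scale of TPM + 1. Slc3a2 (915.9 TPM in LPS contralateral cells) and Slc25a5 (876.3 TPM in day 7 Tdt- cells) are the brightest, and Slc8a1 is dark at day 7 and day 28 and bright in the time course.

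Among the comparisons of contralateral, Tdt- and Tdt+ cells, the clearest difference among the carriers lay in the LPS animals. Compared with contralateral cells, LPS Tdt+ cells had higher Slc13a3, Slc25a10, Slc2a6 and Slc31a2 and lower Slco2b1, and for each of the 5 the Tdt- cells lay between them. Slc25a10 is the mitochondrial dicarboxylate carrier, which exchanges malate and succinate for phosphate, and Slc2a6 is GLUT6, a hexose carrier known from lysosomes of macrophages. Slc13a3 and Slc25a10 thus both handle dicarboxylates, at the cell surface and at the mitochondrial membrane.

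The promoters of the 4 genes that were higher are shown because they rose together; each window runs from 220 bases before to 30 after the transcription start given by RefSeq (GRCm38.p6), read 5′ to 3′ on the strand of the gene, with capitals marking matches to the motifs searched. Slc13a3 lies on chromosome 2 (165405295 to 165473197), Slc25a10 on chromosome 11 (120491837 to 120501161), Slc2a6 on chromosome 2 (27021363 to 27028000) and Slc31a2 on chromosome 4 (62280393 to 62298412), and the start used for Slc31a2 lies within its annotated span. The windows are chr2:165473168-165473417 on the minus strand, chr11:120491617-120491866 on the plus strand, chr2:27027969-27028218 on the minus strand and chr4:62286209-62286458 on the plus strand.
Slc13a3: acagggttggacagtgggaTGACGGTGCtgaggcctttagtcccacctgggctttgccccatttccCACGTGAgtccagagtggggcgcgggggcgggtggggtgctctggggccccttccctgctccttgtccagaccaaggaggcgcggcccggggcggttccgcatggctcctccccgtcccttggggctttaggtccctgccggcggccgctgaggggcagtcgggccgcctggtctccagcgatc
Slc25a10: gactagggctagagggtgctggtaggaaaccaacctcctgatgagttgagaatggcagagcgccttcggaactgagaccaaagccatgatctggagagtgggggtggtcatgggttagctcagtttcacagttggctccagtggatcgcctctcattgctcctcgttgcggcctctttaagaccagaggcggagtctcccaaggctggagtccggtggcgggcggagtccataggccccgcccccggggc
Slc2a6: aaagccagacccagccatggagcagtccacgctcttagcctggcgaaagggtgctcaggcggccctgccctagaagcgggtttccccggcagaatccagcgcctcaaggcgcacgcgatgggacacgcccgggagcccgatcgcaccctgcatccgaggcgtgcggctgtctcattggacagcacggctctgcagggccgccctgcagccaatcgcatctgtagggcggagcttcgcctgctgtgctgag
Slc31a2: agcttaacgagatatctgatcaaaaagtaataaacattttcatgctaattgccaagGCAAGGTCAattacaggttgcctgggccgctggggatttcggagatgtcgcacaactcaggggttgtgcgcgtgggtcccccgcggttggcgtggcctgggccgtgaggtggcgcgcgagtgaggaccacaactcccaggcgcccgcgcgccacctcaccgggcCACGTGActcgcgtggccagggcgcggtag

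On both strands, the windows were searched for the NRF2 element TGACNNNGC, the lysosomal TFEB element TCACGTG, the hypoxia element NACGTG, which lies within the TFEB element, the AP-1 site TGANTCA, the ATF4 element TGATGNAA and an NF-kB site. The NRF2 element occurred in the windows of Slc13a3, beginning at position -201 from the start, and Slc31a2, at -164, and in 10.6% of the 32851 promoters in the table. The TFEB element occurred in the same 2 windows, at -154 and at 1, and in 3.46% of all promoters, and the overlapping hypoxia element in 16.9%. The AP-1 site (6.69% of all promoters), the ATF4 element (3.46%) and the NF-kB site (1.27%) had no match in these 4 windows. Promoter entries were found for 103 members, with 143 windows in all, of which 18.9% held the NRF2 element, 9.79% the TFEB element and 26.6% the hypoxia element.

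Slc13a3 was at 98.3, 43.1, 34.8 and 67.9 TPM in the 4 LPS contralateral libraries, at 249, 119, 117 and 97.3 TPM in Tdt- and at 827, 514, 440 and 317 TPM in Tdt+. Every Tdt+ library was above every Tdt- and contralateral library, and the highest contralateral library was just above the lowest Tdt- library. The means were 61.0 ± 28.6, 146 ± 69.4 and 525 ± 217 TPM (SD, n = 4 each), and Tdt+ minus contralateral was 3.11 ± 0.37 (SE) on the log2(TPM + 1) scale (adjusted p = 0.00106, limma with Benjamini-Hochberg adjustment over all genes tested).

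Slc25a10 was at 22.3, 11, 18.2 and 15.0 TPM in contralateral, 56.0, 32.0, 30.5 and 30.3 TPM in Tdt- and 75.6, 78.9, 76.8 and 72.9 TPM in Tdt+ libraries. The 3 groups did not overlap, and the Tdt+ libraries were close to one another. The log2 difference of Tdt+ from contralateral was 2.17 ± 0.23 (SE, limma adjusted p = 0.000581). Slc2a6 was at 19.7, 15.6, 17.8 and 20.8 TPM in contralateral, 47.7, 35.2, 43.2 and 44.4 TPM in Tdt- and 82.1, 55.8, 89.9 and 72.7 TPM in Tdt+ libraries. Its 3 groups were also separate, and it differed by 1.95 ± 0.18 (SE, limma adjusted p = 0.000387).

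Slc31a2 was at 188, 123, 122 and 117 TPM in contralateral, 295, 184, 225 and 188 TPM in Tdt- and 485, 353, 469 and 273 TPM in Tdt+ libraries. All Tdt+ libraries exceeded all contralateral ones, while the lowest Tdt+ library was below the highest Tdt- library. The log2 difference of Tdt+ from contralateral was 1.51 ± 0.22 (SE, limma adjusted p = 0.00379). Slco2b1 went the other way, with 703, 708, 589 and 549 TPM in contralateral, 413, 500, 443 and 462 TPM in Tdt- and 353, 412, 320 and 285 TPM in Tdt+ libraries. Both stroke-side groups were below every contralateral library, and Tdt+ fell by 0.90 on the log2 scale (SE 0.14, limma adjusted p = 0.00452).

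**Figure D2:**
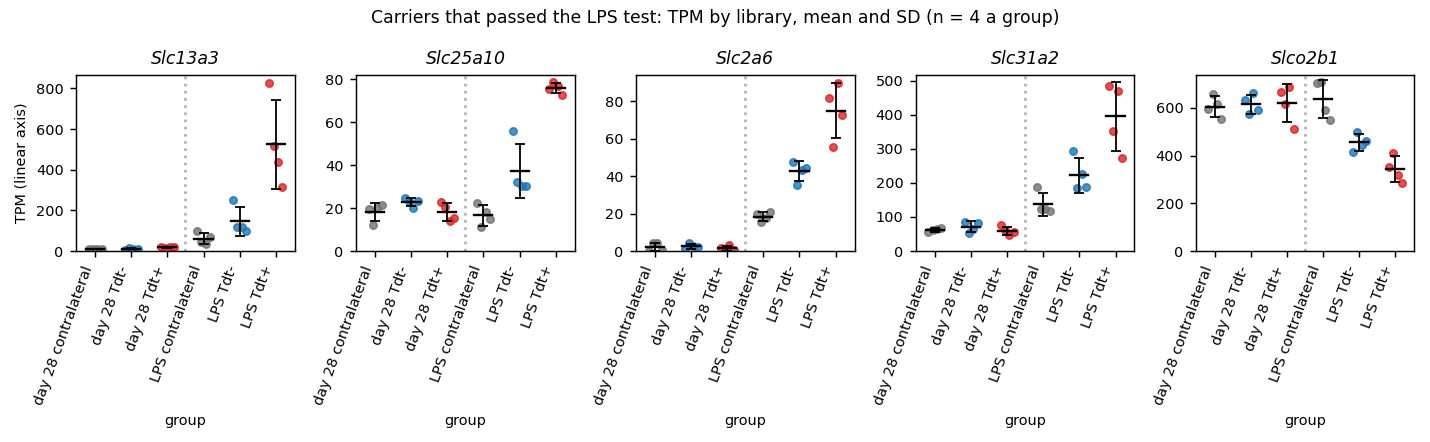
TPM in each library (points, 4 per group) with the mean and SD of the 5 carriers that differed between LPS Tdt+ and contralateral cells, 1 panel per gene, for the 3 groups at day 28 without LPS (left) and the 3 with LPS (right). With LPS the Tdt+ points are apart from the contralateral points in every panel. The 5 were picked by this contrast, in which 9 of 140 members had groups that did not overlap.

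Those 5 were the members that passed of 140 tested, 4 higher and 1 lower, against 0.896% of the 13397 genes tested that were higher and 0.455% that were lower. The median log2 difference was -0.15 over the members and -0.12 over all genes. Each library was also centred on its median over genes at 10 TPM or more in every library. Then 4 members were again higher and 1 lower, among 141 higher and 40 lower genes in all (1.35%) in place of 120 and 61. Unadjusted p was under 0.05 for 20 members and for 1534 of all genes. The groups did not overlap for 9 of the 140 members, these 5 among them. By class, the rises were 1 of 4 carboxylate carriers, 1 of 29 mitochondrial carriers, 1 of 10 sugar carriers and 1 of 21 metal carriers, and the fall was 1 of 13 organic ion carriers. None of the 22 amino acid carriers, 19 inorganic ion carriers, 5 lipid carriers, 4 nucleoside carriers or 4 nucleotide sugar carriers tested passed. The 5 passed under every alternative processing tried, with the highest adjusted p at 0.0273 for Slco2b1.

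Libraries with the same number deviated together in this table, so the difference was also fitted within numbers. With the replicate number as a block, 5 members were higher and 8 lower, against 2.41% of all genes higher and 4.53% lower. The added rise was Slc16a10, an aromatic amino acid carrier (log2 1.12, limma adjusted p = 0.0209). The added falls were Slc44a2 (-0.83, adjusted p = 0.00122, limma), Slc2a8 (-0.55, 0.00907), Slc46a3 (-0.97, 0.0101), Slc9a9 (-0.75, 0.0200), Slc25a30 (-0.72, 0.0441), Slc66a2 (-0.61, 0.0463) and Slc1a4 (-0.62, 0.0479). With block and centring together, an alternative chosen after the values were seen, 8 were higher and 5 lower, against 2.95% and 2.94% of all genes. There Slc25a25, Slc39a4 and Slc7a7 were added to the rises, and Slc25a30, Slc66a2 and Slc1a4 did not pass. With the LPS libraries numbered 4 left out, a choice made after the values were seen, 7 were higher and 3 lower (2.62% of all genes passed), with Slc15a3, Slc16a10 and Slc25a25 added to the rises and Slc44a2 and Slc46a3 to the falls. In that number, the metallothionein and metal response genes summed to 518 TPM in Tdt+, 936 TPM in Tdt- and 1206 TPM in contralateral cells, the highest of each group.

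Other cell markers moved with this comparison. The 10 microglia markers summed to 25773 to 35008 TPM in LPS contralateral, 21857 to 28036 TPM in Tdt- and 17216 to 26279 TPM in Tdt+ libraries. The 6 monocyte markers summed to 42.7 to 101 TPM, 77.9 to 152 TPM and 77.6 to 210 TPM in the same order, with Chil3 at 0 in all 12 libraries and Ly6c2 at 0 in Tdt+. Of these markers Fn1, which encodes fibronectin, averaged 33.1, 88.2 and 131.7 TPM, Plac8 33.3, 29.9 and 12.2 TPM and Ccr2 1.85, 2.1 and 0.835 TPM, so that the higher sum lay in Fn1. The 8 markers of border-associated macrophages stayed between 15.8 and 35.4 TPM in the 3 groups. The part of these shifts in the carrier differences was not tested.

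**Figure D3:**
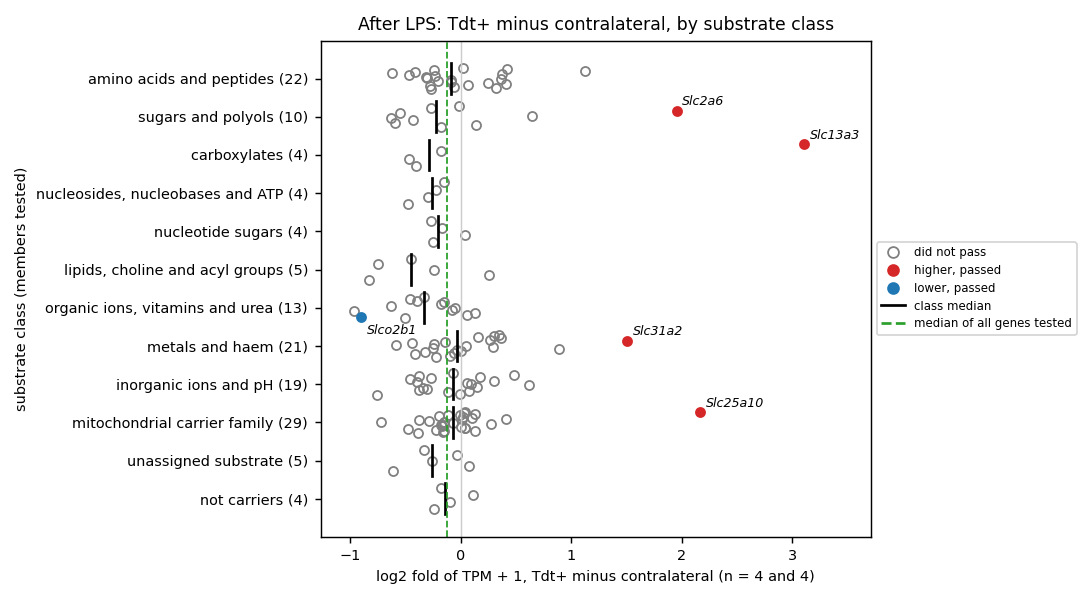
Log2 difference (TPM + 1 scale) of LPS Tdt+ from contralateral cells for each tested member, by substrate class, with members past the adjusted p threshold of 0.05 filled and named, class medians as black bars and the median of all genes as a dashed line. Slc13a3 (3.11), Slc25a10 (2.17), Slc2a6 (1.95) and Slc31a2 (1.51) stand above their classes and Slco2b1 (-0.90) is marked below 0.

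Set directly against Tdt- cells of the same hemisphere, no member passed in LPS Tdt+ cells without the block (0 of 140, against 0.0% of all genes; unadjusted p under 0.05 in 9 members and 618 of 13397 genes), and the 2 with the smallest p were Slc13a3 and Slc25a10 (limma adjusted p = 0.411 for both). Within replicate numbers 4 members were higher and 0 lower, against 0.463% of all genes in either direction (0.299% higher and 0.164% lower). Slc13a3 rose by 1.86 (log2, limma adjusted p = 0.00549), Slc31a2 by 0.81 (0.0162), Slc2a6 by 0.79 (0.0203) and Slc25a10 by 1.06 (0.0325). In LPS Tdt- minus contralateral, 0 of 140 members passed (0.0149% of all genes did; unadjusted p under 0.05 in 12 members and 770 genes). Its lowest p was that of Slc2a6, with a log2 difference of 1.16 ± 0.18 (SE, limma adjusted p = 0.0549) and no overlap between the groups, as for 9 of 140 members. Slc25a10 followed (1.11, limma adjusted p = 0.196). Slc2a6 passed in this contrast with centring (limma adjusted p = 0.0313), with quantile normalization (0.0368), at a minimum of 10 TPM (0.0354), without contralateral replicate 1 (0.0328) and with the replicate block (0.00133). With the replicate block 4 members were higher and 1 lower in this contrast, against 0.642% of all genes higher and 0.246% lower. Slc13a3 rose by 1.25 (log2, limma adjusted p = 0.0141), Slc25a10 by 1.11 (0.0161), Slc31a2 by 0.70 (0.0142) and Slc2a6 by 1.16. Slco2b1 was lower (-0.48, limma adjusted p = 0.0395). The 3 comparisons share their libraries and are not independent.

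Whether the LPS difference departed from that without LPS was tested on the difference between the Tdt+ minus contralateral contrasts of the LPS and day 28 tables, each contrast being taken within its own table; the LPS treatment and the table cannot be told apart. Of 141 members, 3 had a higher and 1 a lower contrast with LPS, against 0.418% of 14602 genes higher and 0.137% lower. The difference of contrasts was 2.17 ± 0.32 (SE, log2) for Slc25a10 (limma adjusted p = 0.00108), 1.59 ± 0.29 for Slc31a2 (0.00764), 2.29 ± 0.43 for Slc13a3 (0.00952) and -0.93 ± 0.17 for Slco2b1 (0.00899). Slc2a6, at a mean of 1.46 to 2.59 TPM in the day 28 groups, did not pass (2.22 ± 0.61, limma adjusted p = 0.133). With a replicate block it did pass (2.22 ± 0.52, limma adjusted p = 0.0260). With that block 5 members were higher and 7 lower, against 1.01% of all genes higher and 1.45% lower. At day 28 without LPS, Slc25a10 averaged 18.3, 22.8 and 18.3 TPM, Slc31a2 62.8, 71.7 and 59.7 TPM and Slco2b1 605, 615 and 620 TPM in contralateral, Tdt- and Tdt+ cells. No member passed in the corresponding test for Tdt+ minus Tdt- (0.0% of all genes; unadjusted p under 0.05 in 9 members and 579 of 14602 genes; lowest p for Slc25a10, 1.39, limma adjusted p = 0.795, and Slc31a2, 1.07, adjusted p = 0.999) or Tdt- minus contralateral (0.0205%; unadjusted p under 0.05 in 14 members and 794 genes; lowest p for Slc38a7, -0.82, adjusted p = 0.586, and Slc12a9, -0.65, adjusted p = 0.616).

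At day 28 without LPS none of the 140 members passed in any of the 3 contrasts, and neither did any other gene (0.0%), with an unadjusted p under 0.05 in 6 members for Tdt+ minus contralateral and in 7 for each of the others, beside 585, 473 and 575 of 12710 genes for Tdt+ minus contralateral, Tdt+ minus Tdt- and Tdt- minus contralateral. Slc13a3 was at 8.35, 10.4, 9.97 and 11.5 TPM in contralateral, 7.5, 12.7, 11.7 and 12 TPM in Tdt- and 19.8, 13.9, 19.1 and 21.5 TPM in Tdt+ libraries. The Tdt+ values were above both other groups, and the difference from contralateral was 0.81 ± 0.26 (SE, log2, limma adjusted p = 0.991). Among the members, 3 of 140 had no overlap for Tdt+ minus contralateral and 6 of 140 for Tdt+ minus Tdt-. Slc25a38, the mitochondrial glycine carrier needed for haem synthesis, was at 6.86, 10.6, 23.7 and 11.7 TPM in contralateral and 40.5, 48.7, 21.4 and 21.0 TPM in Tdt+ cells. These groups overlapped, with a difference of 1.29 ± 0.34 (SE, limma adjusted p = 0.878). For Tdt+ minus Tdt- the lowest p-values were those of Slc13a3 (0.71) and Slc39a14, a zinc, iron and manganese importer (1.18), both at an adjusted p of 0.999 in limma. For Tdt- minus contralateral they were those of Slc25a11, the oxoglutarate/malate carrier (0.37), and Slc38a7, a lysosomal glutamine exporter (0.49), both at 0.987.

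At day 7 none of the 140 members passed either, while 0.0712%, 0.0158% and 0.00791% of 12637 genes did for Tdt+ minus contralateral, Tdt+ minus Tdt- and Tdt- minus contralateral. Unadjusted p was under 0.05 in 11, 5 and 6 members and in 907, 662 and 718 genes. In the same order, 18, 12 and 13 of the 140 members had groups that did not overlap. The genes below were named for their small p, so their separation is a description. The zinc importer Slc39a12 was at 20.4, 13.3 and 13.7 TPM in contralateral, 12.3, 12.6 and 10.3 TPM in Tdt- and 6.56, 2.39 and 7.48 TPM in Tdt+ libraries. Tdt+ values were below both others, and the difference from contralateral was -1.46 ± 0.41 (SE, log2, limma adjusted p = 0.375). Slc25a38 was at 7.37, 9.44 and 15.0 TPM in contralateral and 29.7, 28.6 and 16.1 TPM in Tdt+ cells (1.16 ± 0.35, limma adjusted p = 0.438), without overlap here. For Tdt+ minus Tdt- the lowest p-values were those of Slc44a1, a choline transporter-like protein (1.01, limma adjusted p = 0.834), and Slc39a12 (-1.08, adjusted p = 0.862). Slc30a6, a Golgi zinc transporter, was at 36.7, 36.0 and 34.6 TPM in contralateral and 11.8, 10.6 and 18.5 TPM in Tdt- cells. Its groups did not overlap, with a difference of -1.37 ± 0.27 (SE, limma adjusted p = 0.548), and the magnesium carrier Slc41a1 followed (1.21, adjusted p = 0.856).

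In the time course, levels of many carriers in Tdt+ cells differed between day 3 and day 28, and the median of all genes shifted as well. Day after injury and age cannot be told apart, and the comparisons share groups. That shift was 0.18 (log2) from day 3 to day 7, 0.14 from day 7 to day 14, 0.18 from day 14 to day 28 and 0.56 from day 3 to day 28. From day 3 to day 28, 65 of 140 members were higher and 11 lower, against 35.6% of 15316 genes higher and 7.97% lower. With each library centred on the median of genes at 10 TPM or more in every library, 20 were higher and 29 lower (27.0% of all genes passed). The median of all genes was then 0.07. The member median was 0.59, close to that of all genes. Of the 76 that passed, 55 were at 10 TPM or more in both groups. The counts include members that met the rule in 1 group only, such as Slc36a2 (higher) and Slc43a3 (lower). Of the 140 members, 55 had no overlap between day 3 and day 28, and 24 had none between day 3 and day 7.

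By class, as deposited and then centred, the rises and falls from day 3 to day 28 were 12 and 0 (then 5 and 4) of 23 amino acid carriers, 11 and 1 (3 and 3) of 19 inorganic ion carriers, 9 and 1 (3 and 2) of 13 organic ion carriers and 9 and 3 (3 and 6) of 29 mitochondrial carriers. They were 6 and 2 (2 and 5) of 21 metal carriers, 4 and 2 (0 and 4) of 10 sugar carriers, 4 and 0 (1 and 0) of 4 nucleotide sugar carriers, 2 and 1 (1 and 2) of 4 nucleoside carriers, 2 and 0 (1 and 0) of 4 carboxylate carriers and 2 and 1 (1 and 1) of the 4 lipid carriers tested. The 5 members without an assigned substrate had 1 and 0 (0 and 1), and the 4 that are not carriers 3 and 0 (0 and 1). All genes together went from 5460 higher and 1221 lower to 1977 and 2162 with centring.

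**Figure D4:**
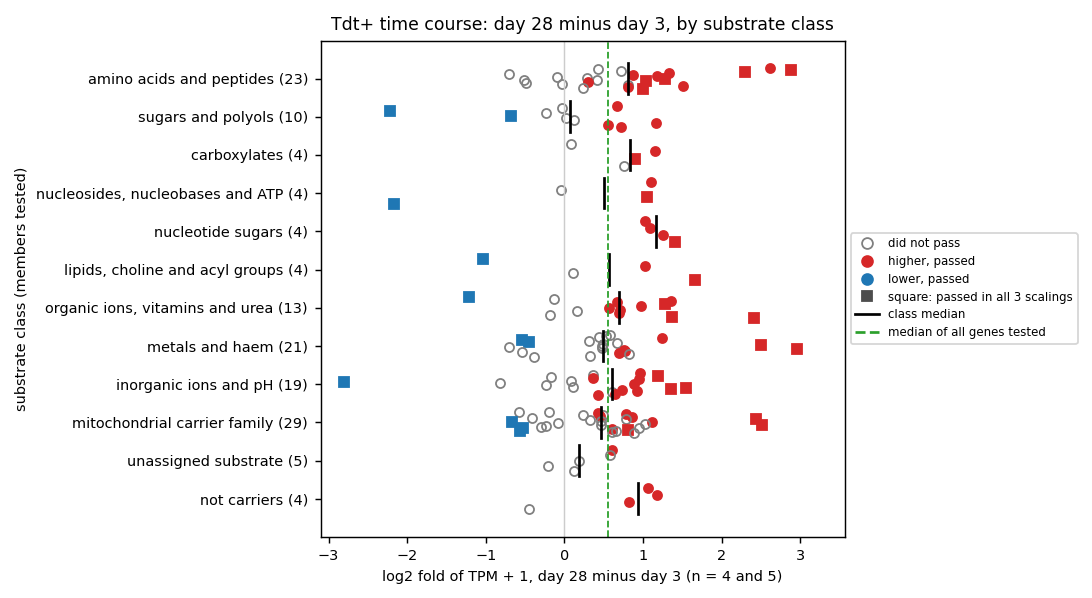
Log2 difference (TPM + 1 scale) between day 28 and day 3 Tdt+ cells for each tested member, by substrate class, with the median of all genes (0.56) as a dashed line. Red and blue points passed (65 higher, 11 lower), squares passed in all 3 scalings (as deposited, centred, quantile-normalized), and black bars mark class medians.

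The carriers that rose most had named substrates in lysosomes, mitochondria and at the surface. Slc15a4, which exports histidine and small peptides from endolysosomes, was at 19.2, 40.1, 15.2, 20.1 and 15.6 TPM at day 3, 20.6, 32.6, 21.2, 27.5 and 15.7 TPM at day 7, 120, 70.8, 90.1, 83.6 and 156 TPM at day 14 and 107, 112, 398 and 129 TPM at day 28. Its step lay between day 7 and day 14 (2.08 ± 0.32, SE, log2, limma adjusted p = 0.000439), and day 28 exceeded day 3 by 2.88 ± 0.34 (adjusted p = 1.26e-06). Slc25a25, a calcium-regulated mitochondrial ATP-Mg/phosphate carrier, stepped up at the same point. It was at 2.21 to 7.26 TPM at day 3, 3.86 to 7.33 TPM at day 7, 20.1 to 29.7 TPM at day 14 and 22.2 to 33.0 TPM at day 28 (day 14 minus day 7 1.96 ± 0.26, SE, limma adjusted p = 8.54e-05; day 28 minus day 3 2.44 ± 0.27, adjusted p = 5.24e-07).

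Other rises were spread over the days. Slc25a37, mitoferrin 1, which brings iron into mitochondria, was at 9.31, 10.8, 11.4, 6.32 and 7.07 TPM at day 3, 18.6 to 26.5 TPM at day 7, 23.6 to 35.0 TPM at day 14 and 55.3, 60.8, 53.1 and 51.0 TPM at day 28. Day 3, day 14 and day 28 did not overlap with one another, and it rose from day 3 to day 7 (1.3 ± 0.18, SE, limma adjusted p = 2.89e-05), from day 14 to day 28 (0.92 ± 0.19, adjusted p = 0.00611) and over the whole course (2.51 ± 0.19, adjusted p = 2.05e-09). Slc1a3, the glutamate transporter GLAST, was at 19.8 to 28 TPM at day 3, 35.2 to 77.2 TPM at day 7, 73.0 to 144 TPM at day 14 and 108 to 119 TPM at day 28. It rose in both of the first intervals (1.09 ± 0.18 and 1.02 ± 0.18, SE, limma adjusted p = 0.000333 and 0.00151) and by 2.30 ± 0.20 over the whole course (adjusted p = 1.33e-08). GLAST is also an astrocyte gene, and the astrocyte markers summed to 4.81 to 8.74 TPM at day 3, 1.20 to 3.04 TPM at day 7, 4.46 to 19.2 TPM at day 14 and 1.16 to 9.33 TPM at day 28. Their part in the Slc1a3 rise was not tested.

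Slco2b1 rose early, from 272, 289, 277, 276 and 261 TPM at day 3 to 536, 574, 488, 549 and 558 TPM at day 7. These groups did not overlap, and the rise was 0.97 ± 0.11 (SE, log2, limma adjusted p = 1.96e-06). It rose by 0.48 ± 0.11 to day 14 (adjusted p = 0.00827, and 0.0713 after centring). Slco4a1, another organic anion transporter, was at 5.35 to 15.2 TPM at day 3, 22.6 to 25.6 TPM at day 7, 27.8 to 48.5 TPM at day 14 and 41.5 to 66.0 TPM at day 28 (2.41 ± 0.24 over the whole course, limma adjusted p = 1.30e-07). Every day 7 library was above every day 3 library (1.22 ± 0.23, adjusted p = 0.000896). Slc44a2 rose from 52.5 to 81.4 TPM at day 3 to 116 to 158 TPM at day 7 (1.11 ± 0.16, limma adjusted p = 6.89e-05).

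Of the metal carriers, the zinc importer Slc39a4 (ZIP4) was at 0.75 to 5.01 TPM at day 3 and 14.8 to 27.1 TPM at day 28 (2.96 ± 0.50, SE, limma adjusted p = 8.44e-05), and Slc39a12 (ZIP12) at 0.42 to 2.20 TPM and 7.32 to 14.6 TPM (2.5 ± 0.32, adjusted p = 3.51e-06). The zinc importer Slc39a1 was among the 11 that fell, and Slc39a8 and Slc39a14 were lower with centring. The pseudocount shrinks such differences. Slc15a2, the peptide transporter PEPT2, was at 0 to 6.23 TPM at day 3 and 8.38 to 40.0 TPM at day 28 (2.62 ± 0.83, limma adjusted p = 0.0147), but adjusted p was 0.0606 after centring, 0.0699 after quantile normalization and 0.0581 without day 28 replicate 3.

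**Figure D5:**
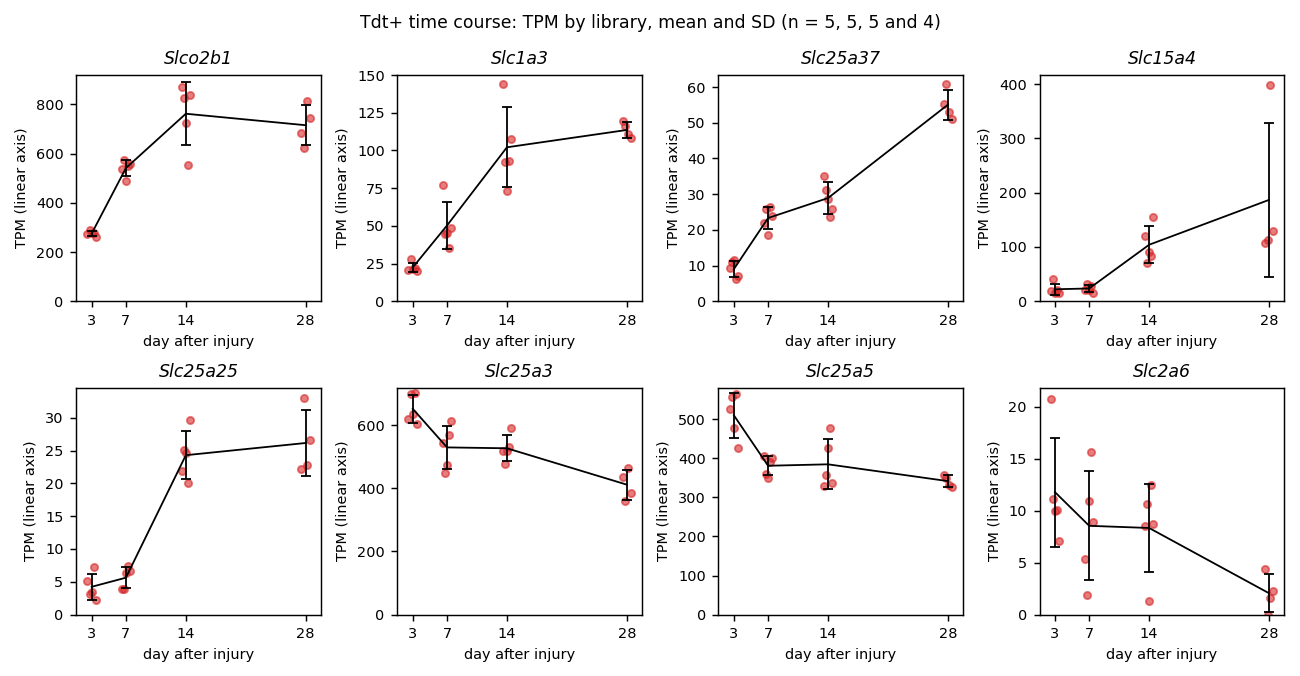
TPM in each Tdt+ library of the time course (5, 5, 5 and 4 points at day 3, 7, 14 and 28) for 8 carriers, 1 panel each, with the mean and SD. Slco2b1, Slc1a3, Slc25a37, Slc15a4 and Slc25a25 were higher at day 28 than at day 3, and Slc25a3, Slc25a5 and Slc2a6 were lower.

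The falls from day 3 to day 28 included 3 abundant carriers that couple mitochondria to ATP synthesis. Slc25a3 was at 618, 698, 636, 701 and 605 TPM at day 3 and 437, 360, 464 and 385 TPM at day 28 and fell by 0.67 (log2, SE 0.10, limma adjusted p = 3.53e-05). Slc25a5 was at 527, 557, 477, 565 and 427 TPM at day 3 and 358, 351, 332 and 326 TPM at day 28 and fell by 0.57 (SE 0.11, adjusted p = 0.000393). Slc25a4, the other ADP/ATP carrier, went from a mean of 115 to 79.7 TPM (-0.53 ± 0.15, limma adjusted p = 0.00910). In each of the 3 the day 28 libraries were below all day 3 libraries, and the falls also passed with centring and with quantile normalization.

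Slc2a6 was at 20.8, 11.1, 9.93, 10.0 and 7.04 TPM at day 3 and 4.39, 0, 1.55 and 2.27 TPM at day 28 and fell by 2.22 (SE 0.55, limma adjusted p = 0.00296). Slc43a3, a purine nucleobase transporter, was at 10.6 to 28.7 TPM at day 3 and 0 to 12.8 TPM at day 28, with overlap. It met the rule through its day 3 level alone, so this is a description, although it is counted among the 11. The fatty acid carrier Slc27a1 went from 41.5 to 49.4 TPM to 13.6 to 29.8 TPM (-1.04 ± 0.27, adjusted p = 0.00365) and the copper importer Slc31a1 (CTR1) from 41.2 to 46.6 TPM to 25.4 to 31.8 TPM (-0.55 ± 0.17, adjusted p = 0.0144). Slc2a9, a urate and hexose carrier, was lower at day 28 (-0.68 ± 0.25, limma adjusted p = 0.0323), but it did not pass in 5 of the 9 fits that each left out 1 library (adjusted p up to 0.125).

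From day 3 to day 7, 21 members were higher and 8 lower, against 9.93% and 4.42% of all genes, and 14 and 12 after centring (12.1% of all genes passed). Without day 3 replicate 1, 19 passed (11.6% of all genes). Beside those above, the named rises were Slc39a6, a zinc importer (0.97 ± 0.26, SE, limma adjusted p = 0.0151, and 0.0575 after quantile normalization), and Slc22a17, the lipocalin receptor (0.93 ± 0.21, adjusted p = 0.00358); Slc4a1ap, which is not a carrier, had 0.93 ± 0.26. The lysosomal Slc26a11 met the rule through its day 3 level alone (mean 10.8 TPM). It is counted among the 8, but its fall is only a description. The other named falls were Slc25a39, which imports glutathione into mitochondria (-0.73 ± 0.20, SE, limma adjusted p = 0.0199), Slc17a5, the sialic acid exporter sialin (-0.55 ± 0.18, 0.0476), Slc25a4 (-0.52 ± 0.15, 0.0193), Slc25a5 (-0.42 ± 0.11, 0.0103), Slc9a9 (-0.38 ± 0.13, 0.0487) and Slc25a3 (-0.31 ± 0.10, 0.0404). Slc17a5 did not pass in 9 and Slc9a9 and Slc25a3 in 7 of the 10 fits that left out 1 library.

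From day 7 to day 14, 10 members were higher and 1 lower, against 4.46% and 1.54% of all genes, and 4 and 2 after centring (4.65% of all genes passed). Without day 14 replicate 5, 7 passed (4.37% of all genes). Of 23 amino acid carriers 5 rose: Slc1a5, the neutral amino acid exchanger ASCT2 (1.67 ± 0.44, SE, limma adjusted p = 0.0246), Slc7a6, a light chain of Slc3a2 (1.03 ± 0.25, 0.0137), Slc3a2 itself (0.48 ± 0.10, 0.00653), Slc1a3 and Slc15a4. After centring, Slc1a5 (adjusted p = 0.0641) and Slc3a2 (0.131) no longer passed, and Slc38a1 was lower. Slc7a6 is next to Slc7a6os, from which its reads may not be separable. The other rises were Slc25a39 (0.82 ± 0.20, limma adjusted p = 0.0178), Slc8a1 (0.52 ± 0.14, 0.0306), Slc39a7 (0.48 ± 0.14, 0.0462), Slco2b1 and Slc25a25; of these Slc25a39, Slc8a1, Slc39a7 and Slco2b1 did not pass after centring. The fall was Slc2a9 (-0.94 ± 0.23, 0.0174). Slc25a25, Slc15a4, Slc1a3, Slc3a2, Slco2b1 and Slc7a6 passed in every fit that left out 1 library, and the other 5 did not.

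From day 14 to day 28, 8 members were higher and 4 lower, against 4.06% and 2.21% of all genes, and 6 and 5 after centring (6.22% of all genes passed). This count rested on single libraries: 7 passed without day 14 replicate 4 (4.08% of all genes), 6 without day 28 replicate 1 (4.33%) and 5 without day 28 replicate 2 (3.32%). Slc8a1 went from 258 to 378 TPM to 448 to 623 TPM (0.72 ± 0.15, SE, limma adjusted p = 0.00760), Slc9a9 rose by 0.66 ± 0.14 (0.00600), Slc9a7 by 1.17 ± 0.35 (0.0487) and the sodium-potassium-chloride carrier Slc12a2 by 0.95 ± 0.23 (0.0162). The lysosomal arginine-sensing carrier Slc38a9 rose by 0.79 ± 0.17 (limma adjusted p = 0.0109) and the vesicular monoamine transporter Slc18a2 by 1.18 ± 0.35 (0.0481). The amino acid carrier Slc36a2, also counted among the 8, met the rule through day 28 alone (mean 13.9 TPM), so its rise is only a description. Slc9a7 and Slc18a2 did not pass after centring (adjusted p = 0.0701 and 0.0646). The falls were Slc1a5 (-1.64 ± 0.47, limma adjusted p = 0.0399), Slc29a1 (-0.48 ± 0.12, 0.0196), Slc3a2 (-0.38 ± 0.11, 0.0409) and Slc25a3 (-0.36 ± 0.10, 0.0432). Slc1a5 and Slc3a2 were thus among the rises to day 14 and among the falls after it. Both differences use the day 14 libraries and are not independent, and the 2 rises did not pass after centring. With 1 library left out, the rise of Slc1a5 was lost in 5 of 10 fits and its fall in 6 of 9. The rise of Slc3a2 was lost in 0 of 10 and its fall in 7 of 9. For Slc3a2 the fall was not past the threshold after quantile normalization (limma adjusted p = 0.198), nor was that of Slc25a3 (0.358). Slc9a9, Slc25a37, Slc8a1 and Slc38a9 passed in every fit that left out 1 library, and the other 8 did not.

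The libraries of the time course also differed in other markers. Microglia markers summed to 17805 to 21626 TPM at day 3, 31387 to 36315 TPM at day 7, 40251 to 42590 TPM at day 14 and 33936 to 39276 TPM at day 28. Markers of border-associated macrophages summed to 193 to 249 TPM at day 3, 27.8 to 40.2 TPM at day 7, 13.6 to 36.7 TPM at day 14 and 8.38 to 43.3 TPM at day 28. The day 3 sum lay mostly in Mrc1 (mean 99.7 TPM), Pf4 (52.7 TPM), Ms4a7 (34.5 TPM) and Cbr2 (25.8 TPM). Cd163 and Lyve1 were low already at day 3 (means 0.29 and 1.98 TPM) and at 0 from day 7 on. Monocyte markers reached 410 TPM in day 3 replicate 1, with Ly6c2 and Chil3 at 0 on every day; the day 3 means were 115.9 TPM for Fn1, 1.12 TPM for Plac8 and 0.9 TPM for Ccr2. The part of these shifts in the carrier differences was not tested.

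Related genes outside the SLC symbols were examined as lists. Between LPS Tdt+ and contralateral cells, 0 of 18 carriers without an Slc symbol, 0 of 15 amino acid response genes, 0 of 9 NRF2 response genes and 0 of 4 metal response genes passed, with medians of -0.25, -0.22, 0.08 and -0.40 (log2) against -0.12 for all genes. With the replicate block, 3 of the carriers, 2 of the amino acid response genes and 1 of the metal response genes were lower and 1 of the NRF2 response genes was higher, beside 2.41% of all genes higher and 4.53% lower. None passed at day 7 or day 28. From day 3 to day 28, 5 of 18 carriers without an Slc symbol were higher and 4 lower (1 and 7 after centring), where 35.6% of all genes were higher and 7.97% lower. Among them Ucp2, a mitochondrial carrier of the SLC25 family known by another name, went from 1298 ± 104 to 596 ± 47.8 TPM and fell by 1.12 (log2, SE 0.11), and Spns2, a sphingosine-1-phosphate exporter, rose by 2.33. Of 12 amino acid response genes 3 were higher and 1 lower (1 and 1 after centring), the latter being Psat1 of serine synthesis, which fell by 1.95. Of 9 NRF2 response genes 2 were higher and 1 lower (0 and 1 after centring), the latter being Hmox1, the haem-degrading enzyme, which went from 83.0 to 21.3 TPM and fell by 1.92. Of 3 metal response genes 1 was higher and 2 lower (1 and 2 after centring), the latter being the metallothioneins Mt1 (304 to 117 TPM, -1.39) and Mt2 (-2.20).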

How the data were processed

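Microglia were sorted from mouse cortex and their RNA was sequenced in bulk by a modified SMART-Seq2 method, per the labels' protocols. The submitters' processing notes name cutadapt 2.10, STAR 2.7.5c, RSEM 1.3.3 and the build GRCm38, without giving their roles. The authors deposited TPM values in 4 tables, which hold no counts, so depth is unknown. Contralateral samples were matched by number to the columns of Tdt- cells of the contralateral side. The labels do not state this match, and every contralateral value rests on it. The 7 columns of contralateral Tdt+ cells (3 at day 7, 4 at day 28) were matched to no sample and were not used. The 6 chromatin accessibility and 2 single-cell samples were not analysed here.

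From these, log2(TPM + 1) was fitted with limma 3.58.1 (R 4.3.3; empirical Bayes with a trend) for genes at 1 TPM or more in at least as many libraries as the smallest group, with all groups of a table in 1 fit and p-values adjusted over all genes tested (Benjamini-Hochberg, threshold 0.05), in 16 comparisons. A fold on this scale understates the change of low genes. The procedure was also run on simulated data with independent libraries and equal numbers of rises and falls. These settings do not cover libraries that deviate together or a shift of the median gene. Substrate classes were assigned by hand from the known substrate of each gene. The members and lists were chosen with earlier results of these data known.

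The genes named are, per comparison, all carriers that passed if 12 or fewer did, otherwise the 8 largest rises and 8 largest falls among those with a mean of 10 TPM in the higher group, and the 2 with the smallest p where none passed; for levels, the 3 highest of each class and the 3 genes on each side of the threshold.

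Replicate numbers are shared between groups. Deviations of same-numbered libraries from their group means correlated at r = 0.19 to 0.55 for LPS Tdt+ and contralateral cells. For LPS Tdt+ and Tdt- cells r was 0.12 to 0.52. All 4 pairs of each were above 0.1, so fits with a replicate block are given for these beside the main fit. The main fit had no block, and p-values given without mention of a block come from fits without it. In all other comparisons at least 1 pair was below 0.1. Some libraries with different numbers were above 0.1 too, such as LPS contralateral replicate 3 and Tdt+ replicate 2 (0.17). At day 7, contralateral and Tdt- libraries correlated at 0.05 to 0.17 with the same number, and at 0.03 or less otherwise. The cut of 0.1 thus does not settle which libraries belong together.

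The alternatives were other pseudocounts (0.1 and 5), no filter or a minimum of 10 TPM, quantile normalization, median centring, a replicate block, only the groups compared, and each library left out in turn. Median centring used only genes at 10 TPM or more in every library of the fit, so the median of all genes need not become 0. The fits without LPS libraries numbered 4 and with block and centring together were chosen after seeing the data.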

Additional observations from a re-analysis of the deposited data

Results flagged for a closer look

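Among 104 pairs of a named carrier and a group of 4 or 5 libraries, 7 had 1 library far from the others by Dixon's criterion, and chance alone marks about 1 in 20 such groups. Slc31a2 was at 187.9 TPM in LPS contralateral replicate 1 and at 116.7 to 122.7 TPM in the other 3 libraries. Slc15a4 was at 398.1 TPM in time course day 28 replicate 3 (107.2 to 128.9 TPM in the others) and at 40.13 TPM in day 3 replicate 2 (15.15 to 20.11 TPM in the others). Slc12a2 was at 30.76 TPM in day 28 replicate 3 (25 to 25.82 TPM). At day 7 of the time course, Slc26a11 was at 6.18 TPM in replicate 4 (3.02 to 3.44 TPM), Slc25a39 at 24.77 TPM in replicate 2 (41.37 to 47.27 TPM) and Slc3a2 at 436.2 TPM in replicate 5 (342.8 to 362.4 TPM).

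The contrast of Tdt+ with contralateral cells differed between the LPS and day 28 tables for 4 carriers, by a test of the difference itself: 2.29 (log2) for Slc13a3, 2.17 for Slc25a10, 1.59 for Slc31a2 and -0.93 for Slco2b1.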

How the results depend on the processing

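No named gene's difference changed sign under the alternatives run, but the balance of rises and falls did change: 65 and 11 became 20 and 29 with centring for day 28 minus day 3, and 4 and 1 became 5 and 8 with the block, or 8 and 5 with block and centring, for LPS Tdt+ minus contralateral. For LPS Tdt+ minus contralateral, the 5 members that passed became 13 with a replicate block, 13 with block and centring and 10 without the libraries numbered 4; leaving out 1 library gave 5 to 6. For LPS Tdt+ minus Tdt-, 0 became 4 with the block and 3 with block and centring, and 0 when 1 library was left out. For LPS Tdt- minus contralateral, not every pair of the same number was above 0.1 (r from 0.07). There 0 became 1 at a minimum of 10 TPM, 1 with quantile normalization and 1 with centring. It became 5 with the replicate block and 4 with block and centring. Leaving out 1 library gave 0 to 1, the 1 without contralateral replicate 1. The LPS against day 28 test of Tdt+ minus contralateral gave 12 in place of 4 with the replicate block and 4 to 5 with 1 library left out, and that of Tdt- minus contralateral 1 in place of 0 with the block and 0 throughout with 1 library left out, as did Tdt+ minus Tdt-. At day 7 and day 28 every count stayed at 0, with 1 library left out too. In the time course, with 1 library left out, counts were 19 to 26 for day 7 minus day 3, 7 to 14 for day 14 minus day 7, 5 to 11 for day 28 minus day 14 and 57 to 76 for day 28 minus day 3. The main counts there were 29, 11, 12 and 76. The lowest came without day 3 replicate 1 (19) and day 14 replicate 5 (7); for day 28 minus day 14 they were 7 without day 14 replicate 4, 6 without day 28 replicate 1 and 5 without day 28 replicate 2. Centring gave 6 for day 14 minus day 7 and 49 for day 28 minus day 3, quantile normalization 50 for the latter, and for day 28 minus day 14 no filter gave 6 and only the groups compared 4. The cause was not tested. Of the named genes, 9 of 15 (day 7 minus day 3), 6 of 11 (day 14 minus day 7), 4 of 12 (day 28 minus day 14) and 14 of 16 (day 28 minus day 3) passed in every fit with 1 library left out. The 9 include Slc26a11 and the 14 include Slc43a3, which met the level rule through day 3 alone. Lowering the level minimum to 5 TPM gives 159 members and raising it to 20 TPM gives 114.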
